A study of Mus musculus with 24 samples.

Results

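The 10 genes described here belong to innate immune signalling and were measured in the mouse hippocampus: the inflammasome genes Pycard, Nlrp3 and Casp1, the cytokine genes Il1b, Il18 and Tnf, the inducible nitric oxide synthase gene Nos2, and the receptor genes Tlr2, Tlr4 and Cd14. They were chosen by symbol among the 22911 genes on the array, with earlier results of these data known. All 10 had a probe, 14 of the 56605 probes named them, and all 10 genes had at least 1 probe that passed the filter on dim probes. RNA came from the hippocampus of 24 male mice, 1 array per mouse. Mice with both transgenes (+ APP + PSEN) formed 4 groups: APP-PS1_UA (n = 4, 8 months) received Urolithin A_5m, APP-PS1_CTR (n = 3, 8 months) received water, APP-PS1_UA-WASHOUT (n = 5, 9 months) received Urolithin A_5m followed by washout_1m, and APP-PS1_WASHOUT (n = 3, 9 months) received water and the same washout. Mice without either transgene (- APP - PSEN) formed WT_CTR (n = 4, 8 months) and WT_WASHOUT (n = 5, 9 months). All 24 carry one line name, B6.Cg-Tg(APPswe,PSEN1dE9)85Dbo/J. Gavage ran from 2 to 7 months of age. The dose is 200 mg/kg/day in one description of the study and 20 mg/kg/day in another, and the labelled ages are later than the collection times that the study design gives. Both groups without the transgenes used here were on water. In RefSeq the genes lie on chromosomes 7 (Pycard), 11 (Nlrp3 and Nos2), 9 (Casp1 and Il18), 2 (Il1b), 17 (Tnf), 3 (Tlr2), 4 (Tlr4) and 18 (Cd14).

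APP/PS1 mice express mutant human amyloid precursor protein and presenilin from prion protein promoter elements, and amyloid plaques surrounded by activated microglia form in their brains. Toll-like receptors on microglia and macrophages sense microbial products and damage signals, and CD14 is a co-receptor that passes ligands to TLR4 and TLR2. Their signalling through NF-kappaB is known to induce Tnf, Il1b, Nlrp3 and Nos2. NLRP3 then nucleates the inflammasome, in which the adaptor ASC, encoded by Pycard, links the sensor to caspase-1, and caspase-1 cleaves the precursors of interleukin-1 beta and interleukin-18. Urolithin A is a gut bacterial metabolite of ellagitannins known for inducing mitophagy.

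The promoters below are those of members that were higher in a transgenic group and that have an entry in RefSeq's promoter table (GRCm38.p6). Each runs from 250 bases before to 50 bases after a start site that the table gives for the gene, 5′ to 3′ on the gene's strand. RefSeq's span of Tlr2 is 83836272 to 83841824, so the start site of its window lies inside the gene. Capitals mark matches to the NF-kappaB consensus, to the PU.1 core GAGGAA or its reverse complement, and to TATAAA. The regions are chr7:127993818-127994117 (minus strand) for Pycard, chr17:35201958-35202257 (minus strand) for Tnf and chr3:83841559-83841858 (minus strand) for Tlr2.
Pycard: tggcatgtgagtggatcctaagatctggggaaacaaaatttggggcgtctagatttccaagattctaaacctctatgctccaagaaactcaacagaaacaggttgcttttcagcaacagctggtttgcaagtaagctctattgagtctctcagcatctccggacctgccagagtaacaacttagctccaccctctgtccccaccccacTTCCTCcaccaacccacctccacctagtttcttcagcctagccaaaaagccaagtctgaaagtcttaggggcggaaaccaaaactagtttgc
Tnf: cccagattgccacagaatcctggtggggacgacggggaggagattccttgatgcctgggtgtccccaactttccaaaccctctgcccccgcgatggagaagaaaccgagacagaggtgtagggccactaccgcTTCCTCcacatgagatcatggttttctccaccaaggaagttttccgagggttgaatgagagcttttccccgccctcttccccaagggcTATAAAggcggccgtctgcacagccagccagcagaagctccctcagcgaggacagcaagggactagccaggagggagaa
Tlr2: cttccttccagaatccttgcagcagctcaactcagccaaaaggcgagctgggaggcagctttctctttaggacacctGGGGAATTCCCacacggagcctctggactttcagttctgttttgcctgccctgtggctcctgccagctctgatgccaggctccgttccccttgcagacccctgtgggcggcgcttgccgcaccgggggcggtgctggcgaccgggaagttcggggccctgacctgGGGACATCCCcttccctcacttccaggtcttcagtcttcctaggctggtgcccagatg
The Pycard window held 1 PU.1 core beginning 42 bases before the start, and the Tnf window held 1 beginning 117 bases before it and a TATAAA 29 bases before it. The Tlr2 window held 3 matches to the NF-kappaB consensus, some of which overlap, the first 173 bases before the start. Both strands were searched except for TATAAA, and AP-1 (TGANTCA) matched in none of these windows. Among the 32851 promoters of the table, 28.3% held the PU.1 core, 4.51% the NF-kappaB consensus, 7.81% AP-1 and 8.32% TATAAA. A match is a description of letters in the window.

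Values are log2 signals minus the 75th percentile of the same array, so they compare a probe between arrays and not one probe with another. In this bulk tissue, fewer cells of a type and less RNA per cell cannot be told apart. The 24 arrays lay on 3 slides. WT_CTR, APP-PS1_CTR and 1 of 4 APP-PS1_UA arrays were on slide 1, the other APP-PS1_UA arrays and WT_WASHOUT on slide 2, and APP-PS1_WASHOUT and APP-PS1_UA-WASHOUT on slide 3. Between 63.7% and 76.9% of spots on an array were well above background. The 4 APP-PS1_UA-WASHOUT arrays of array row 2 had a raised floor, with the lowest signal well above background between -5.17 and -4.49, against -6.64 to -5.78 on the other arrays. Differences were tested with limma over 35259 features, and a feature counts as called where its adjusted p (Benjamini-Hochberg) was under 0.05.

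**Figure D1:**
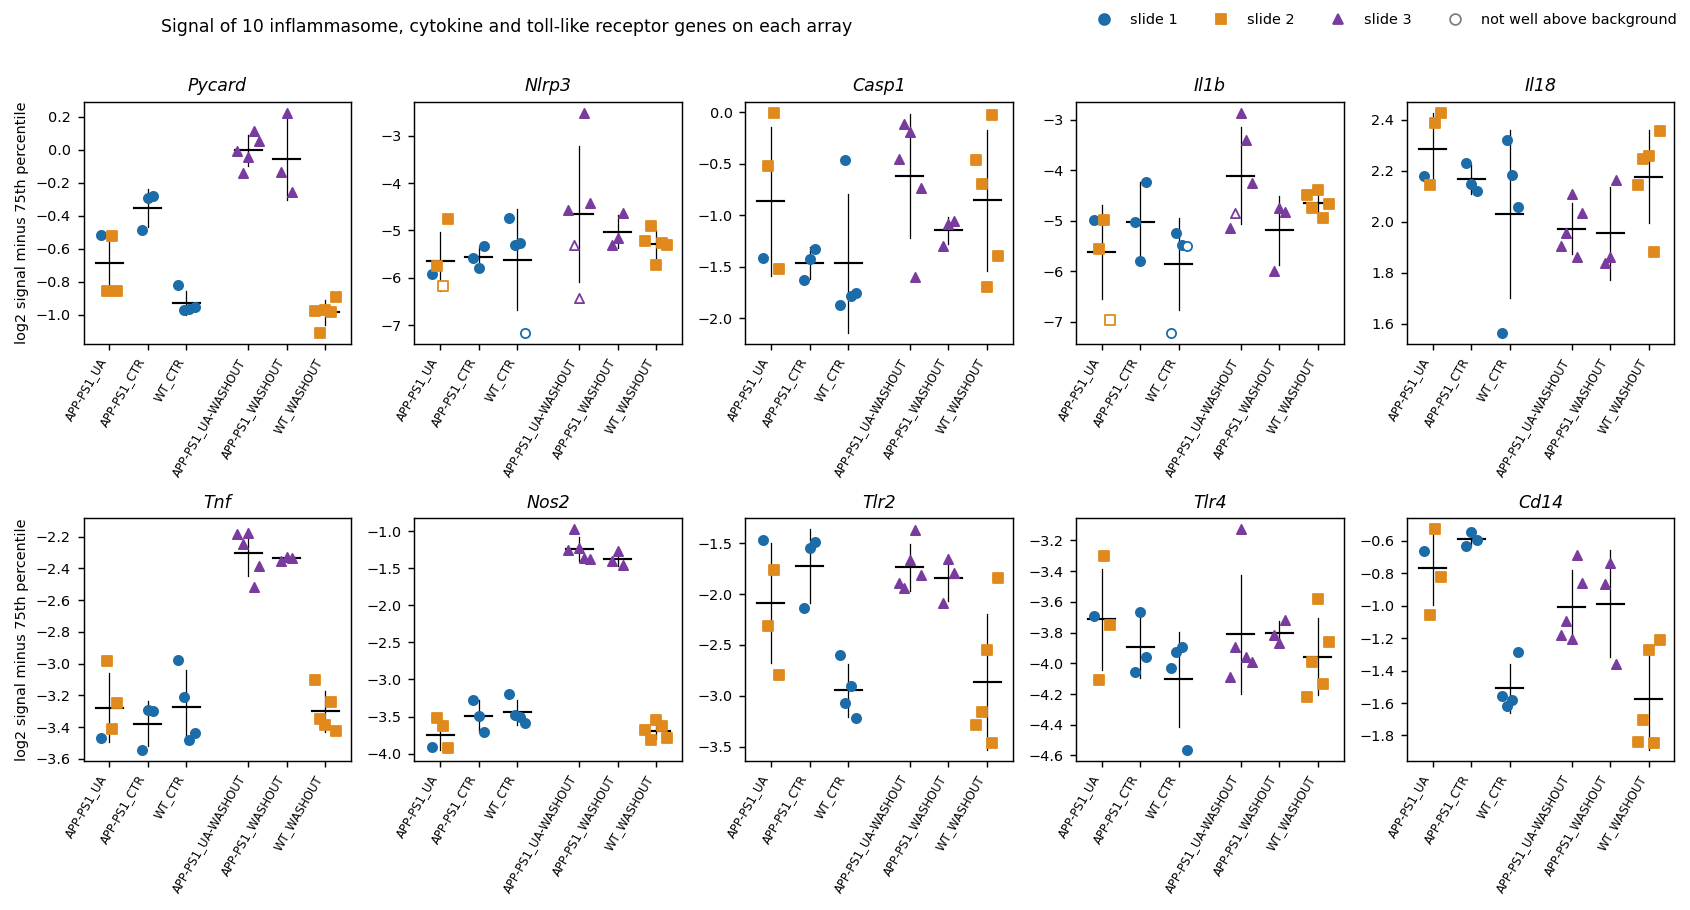
Log2 signal minus the array's 75th percentile (y axis) of each member on every array, by group (x axis), with the y axis scaled separately for each gene. Points are arrays, coloured and shaped by slide, open where the spot was not well above background, and bars are the group mean and SD. Nos2 on slide 3 runs from -1.45 to -0.98, above its -3.92 to -3.20 on slides 1 and 2.

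The first comparison, APP-PS1_CTR with WT_CTR, addresses the transgenes at the end of treatment. The adaptor gene Pycard and the co-receptor gene Cd14 rose in APP-PS1_CTR, and no member fell. These are 2 of 10 members, where 0.17% of all features tested were called and 0.167% were called higher. As the members were chosen with earlier results known, the share does not test them as a set. Pycard read -0.48, -0.29 and -0.28 in APP-PS1_CTR, against -0.82, -0.97, -0.97 and -0.95 in WT_CTR. The groups did not overlap, and the difference was 0.58 (SE 0.11, 1.49-fold, limma adjusted p = 0.0387). Cd14 read -0.63, -0.55 and -0.59 in APP-PS1_CTR, against -1.55, -1.62, -1.58 and -1.28 in WT_CTR. Again every transgenic array was higher, by 0.92 on average (SE 0.18, 1.89-fold, adjusted p = 0.0387), and a second Cd14 probe differed by 0.92 as well. Tlr2 read -2.14, -1.54 and -1.49 in APP-PS1_CTR, against -2.60, -3.07, -2.90 and -3.21 in WT_CTR. Its groups did not overlap, but the difference of 1.22 (SE 0.33) did not pass the test (adjusted p = 0.274). Groups without overlap on the higher side made up 4.28% of all features and 3 of the 10 members. Both calls were lost when any one of the 7 arrays was left out, with adjusted p from 0.0614 to 0.244 for Pycard and from 0.0551 to 0.210 for Cd14, while the differences stayed at 0.54 to 0.64 and 0.88 to 0.99. WT_CTR filled row 1 of the slide and APP-PS1_CTR row 2, and with array row as a block the differences were 0.51 for Pycard and 0.68 for Cd14 (adjusted p = 1.0 for both).

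The other members did not pass the test. The interleukin genes differed by 0.84 (SE 0.57) for Il1b and 0.14 (SE 0.15) for Il18, the sensor Nlrp3 by 0.05 (SE 0.63), the protease gene Casp1 by 0.01 (SE 0.43) and the receptor gene Tlr4 by 0.21 (SE 0.22). Tnf differed by -0.10 (SE 0.13) and Nos2 by -0.05 (SE 0.13), with adjusted p from 0.821 to 0.999 for these 7. The median difference over the members was 0.17, against -0.00 over all features. Nlrp3 and Il1b were dim, well above background on 20 of 24 arrays each. Second probes of Il1b, Tnf and Tlr4 were well above background on 1 of 24 arrays each, so their differences rest on signals near background. Tested singly, none of them passed here, and those that passed elsewhere did so in comparisons with a slide 3 group.

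Some markers of plaque-associated microglia rose as well. Of the 11 measured markers of that list 5 were called higher and 0 lower, and 10 lay above 0. The differences ran from -2.45 to 5.92, with a median of 1.03. The mean level of the list ran from 0.35 to 1.19 in APP-PS1_CTR, against -0.48 to -0.18 in WT_CTR. Of the 12 microglia markers 1 rose (median 0.33), with a mean level of 2.04 to 2.28 in APP-PS1_CTR and 1.65 to 1.80 in WT_CTR. Choroid plexus markers also differed, by a median of 1.81 with 0 of 10 called, with levels of 1.33 to 3.06 in APP-PS1_CTR and -1.74 to 3.24 in WT_CTR. The part of these cell types in the result was not tested. Of the 11 measured markers of monocytes and neutrophils 0 were called (median -0.39). Ccr2, a monocyte marker, was well above background on 1 of 3 APP-PS1_CTR arrays and on 1 of 4 WT_CTR arrays.

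The second comparison, APP-PS1_UA with APP-PS1_CTR, addresses urolithin A at the end of treatment. No member passed the test, and neither did any feature (0.0% of 35259 called by limma, with 2623 at an unadjusted p under 0.05). Pycard was the only member at an unadjusted p under 0.05. It read -0.52, -0.85, -0.53 and -0.86 in APP-PS1_UA, against -0.48, -0.29 and -0.28 in APP-PS1_CTR. Every treated array was lower, by 0.34 on average (difference -0.34, SE 0.11, adjusted p = 0.637), and 4.61% of all features were without overlap on the lower side. Of the 4 APP-PS1_UA arrays only 1 shared slide 1 with APP-PS1_CTR, so treatment and slide cannot be fully told apart in this comparison. With slide as a block, where that array carries the comparison, the Pycard difference was -0.17. The second Cd14 probe differed by -0.26. The differences of the other receptor and inflammasome genes were -0.36 for Tlr2 (95% interval -1.04 to 0.32), -0.18 for Cd14 (-0.55 to 0.20), 0.18 for Tlr4 (-0.28 to 0.64), 0.60 for Casp1 (-0.31 to 1.50) and -0.08 for Nlrp3 (-1.39 to 1.22). Those of the effectors were -0.60 for Il1b (-1.80 to 0.59), 0.12 for Il18 (-0.19 to 0.42), 0.10 for Tnf (-0.18 to 0.38) and -0.25 for Nos2 (-0.52 to 0.02). The intervals leave room for changes of either direction in all of these 9. With slide as a fixed block Tlr2 (0.26), Il1b (0.03) and Tnf (-0.09) changed sign, and the other members kept theirs. Choroid plexus markers ran from -2.61 to 3.73 in APP-PS1_UA and from 1.33 to 3.06 in APP-PS1_CTR, a median difference of -2.34 with 0 of 10 called, and their part in these values was not tested.

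**Figure D2:**
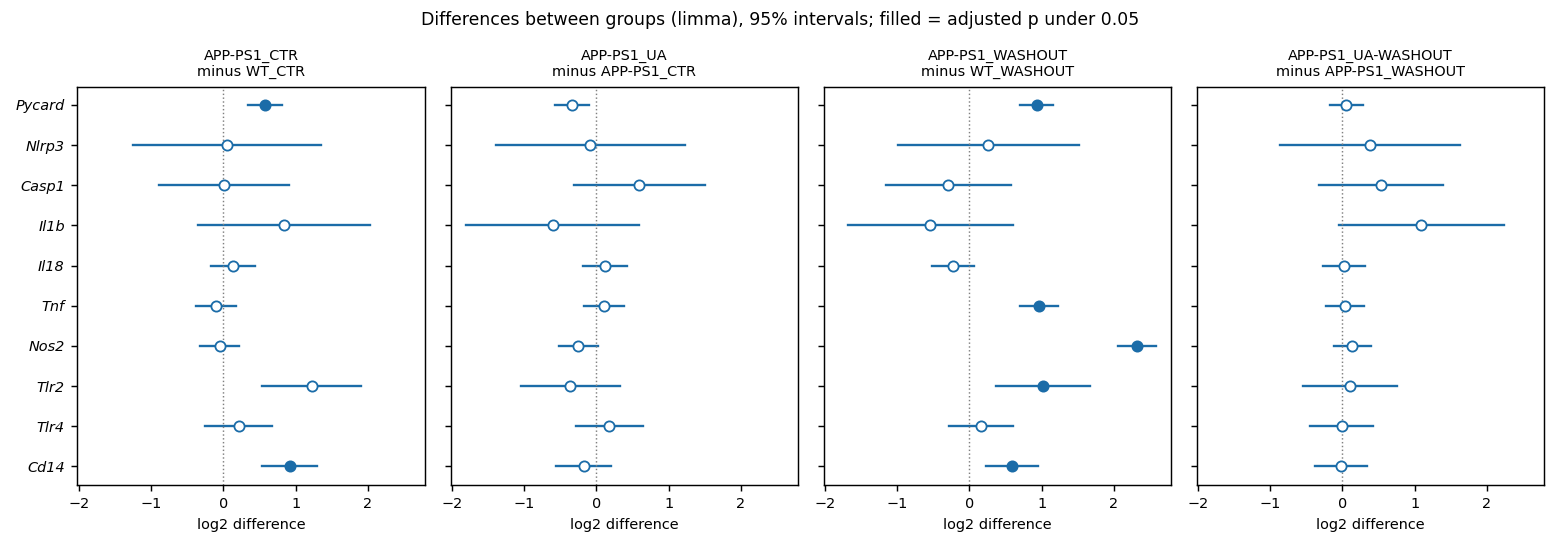
Log2 differences of the members (x axis) in 4 comparisons, with 95% intervals from limma, filled where the adjusted p was under 0.05. The filled points are Pycard and Cd14 in APP-PS1_CTR minus WT_CTR, and Pycard, Tnf, Nos2, Tlr2 and Cd14 in APP-PS1_WASHOUT minus WT_WASHOUT.

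The third comparison, APP-PS1_WASHOUT with WT_WASHOUT, addresses the transgenes 1 month later. Pycard, Tnf, Nos2, Tlr2 and Cd14 were higher in APP-PS1_WASHOUT and no member was lower. The 2 groups lay on different slides, so transgene and slide cannot be told apart here, and 27.5% of all features were called, 19.8% as higher. Nos2, which makes nitric oxide in activated macrophages, read -1.41, -1.27 and -1.45 in APP-PS1_WASHOUT, against -3.68, -3.81, -3.55, -3.63 and -3.79 in WT_WASHOUT. The groups were far apart, with a difference of 2.32 (SE 0.12, 4.98-fold, adjusted p = 1.70e-10), a size that 3.32% of all features reached. Tnf, the gene of a cytokine of activated microglia and macrophages, read -2.35, -2.33 and -2.33 in APP-PS1_WASHOUT, against -3.10, -3.35, -3.39, -3.24 and -3.43 in WT_WASHOUT. It differed by 0.96 (SE 0.13, 1.95-fold, adjusted p = 9.09e-06), reached by 14.6% of features. The dim second Tnf probe, tested singly, differed by 2.12 (limma adjusted p = 0.00401). It was well above background on 1 of 3 APP-PS1_WASHOUT arrays and 0 of 5 WT_WASHOUT arrays. The dim second probes of Il1b (0.68, against -0.54 for its first) and Tlr4 (0.20) did not pass. Pycard read -0.14, 0.22 and -0.26 in APP-PS1_WASHOUT, against -0.98, -1.11, -0.97, -0.99 and -0.90 in WT_WASHOUT. It differed by 0.93 (SE 0.11, 1.91-fold, adjusted p = 2.24e-06), reached by 15.0% of features. These 3 did not overlap between groups, as 21.1% of all features did not on the higher side.

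The receptor genes overlapped. Tlr2 read -2.09, -1.65 and -1.79 in APP-PS1_WASHOUT, against -3.29, -3.16, -2.55, -3.46 and -1.84 in WT_WASHOUT. The difference was 1.02 (SE 0.31, 2.02-fold, adjusted p = 0.0196). Cd14 read -0.86, -0.73 and -1.36 in APP-PS1_WASHOUT, against -1.84, -1.71, -1.27, -1.85 and -1.21 in WT_WASHOUT. The difference was 0.59 (SE 0.17, adjusted p = 0.0149), and 0.71 for its second probe. Leaving out 1 array raised the adjusted p to at most 0.0841 for Tlr2, without APP-PS1_WASHOUT replicate 2 or 3 or WT_WASHOUT replicate 4, and to at most 0.104 for Cd14, without APP-PS1_WASHOUT replicate 1 or 2. The other 5 members did not pass the test: Nlrp3 differed by 0.26 (SE 0.60), Casp1 by -0.29 (SE 0.41), Il1b by -0.54 (SE 0.55), Il18 by -0.22 (SE 0.14) and Tlr4 by 0.16 (SE 0.21). The median over the members was 0.43, against 0.07 over all features. Of all called features 6984 were higher and 2718 lower, and with median scaling, which moved the median of all features by -0.23, the split was 4976 higher and 7874 lower. Under that scaling Pycard, Tnf and Nos2 still rose, while the differences of 0.79 for Tlr2 (adjusted p = 0.0582) and 0.36 for Cd14 (adjusted p = 0.116) did not pass and Il18 fell by 0.45 (adjusted p = 0.0341).

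The 8 arrays of slide 3 are those of the transgenic washout groups, so a level there belongs to slide and groups alike. On them, Nos2 ran from -1.45 to -0.98, Tnf from -2.52 to -2.17 and Pycard from -0.26 to 0.22. On the 16 arrays of slides 1 and 2, they ran from -3.92 to -3.20, from -3.54 to -2.97 and from -1.11 to -0.28. Every slide 3 array was above every other array for these 3 members, as for 9.9% of all features, a count made after the values were seen. Tlr2, Cd14, Casp1, Il1b, Il18, Nlrp3 and Tlr4 overlapped between slide 3 and the other slides.

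Among the markers in this comparison, 8 of the 11 plaque-associated microglia markers rose (median 0.99; mean level 0.76 to 1.18 in APP-PS1_WASHOUT and -0.72 to -0.23 in WT_WASHOUT), and 7 of 12 microglia markers rose (median 0.49). Lymphocyte markers rose for 5 of the 6 measured (median 1.51; level -3.17 to -2.19 in APP-PS1_WASHOUT and -4.60 to -3.89 in WT_WASHOUT), and 2 of 11 monocyte and neutrophil markers rose (median 0.60), near the 19.8% of all features called higher. Of the 10 listed lymphocyte markers 6 were measured, and 3 of these were well above background on all arrays. The filter on dim probes can be passed through the slide 3 arrays alone. Cd3e, a T cell marker, ran from -0.99 to -0.47 in APP-PS1_WASHOUT and from -2.21 to -1.73 in WT_WASHOUT. Slide and group cannot be told apart for any of these markers, and the part of these cell types in the result was not tested.

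The fourth comparison, APP-PS1_UA-WASHOUT with APP-PS1_WASHOUT, addresses urolithin A after washout, and both groups lay on slide 3. No member passed the test, where 0.0652% of all features were called, and 0 members had an unadjusted p under 0.05. Pycard read -0.01, -0.14, -0.04, 0.12 and 0.05 in APP-PS1_UA-WASHOUT, against -0.14, 0.22 and -0.26 in APP-PS1_WASHOUT. The groups overlapped, with a difference of 0.05 (95% interval -0.17 to 0.28). Nos2 differed by 0.14 (-0.12 to 0.39), Tnf by 0.03 (-0.23 to 0.30), Tlr2 by 0.11 (-0.55 to 0.76), Cd14 by -0.02 (-0.38 to 0.34, and 0.14 for its second probe) and Tlr4 by -0.01 (-0.45 to 0.43). The second Tlr4 probe, tested singly, differed by 1.42 (limma adjusted p = 0.0242). It was well above background on 1 of 5 APP-PS1_UA-WASHOUT arrays and 0 of 3 APP-PS1_WASHOUT arrays. Il18 differed by 0.02 (-0.27 to 0.31), Casp1 by 0.53 (-0.33 to 1.39), Nlrp3 by 0.38 (-0.87 to 1.63) and Il1b by 1.09 (-0.05 to 2.23). Il1b had the lowest adjusted p of the members, 0.673, and it read -5.15, -4.85, -2.86, -3.40 and -4.25 in APP-PS1_UA-WASHOUT, against -5.99, -4.75 and -4.83 in APP-PS1_WASHOUT. The 4 treated arrays after the first are those with the raised floor, and they filled array row 2. The first treated array and all APP-PS1_WASHOUT arrays were in row 1, so treatment and array row cannot be fully told apart here. With array row as a block the differences of Pycard and Tlr2 changed sign.

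Against the non-transgenic groups, APP-PS1_UA differed from WT_CTR at no member (0.0624% of features called). Only 1 of 4 APP-PS1_UA arrays shared slide 1 with WT_CTR, so group and slide cannot be fully told apart there. Cd14 came closest, with a difference of 0.74 (SE 0.17, adjusted p = 0.181), read as -0.66, -1.05, -0.53 and -0.82 in APP-PS1_UA, against -1.55, -1.62, -1.58 and -1.28 in WT_CTR. Its groups did not overlap, as 1.61% of features did not on the higher side, and its second probe differed by 0.65. Tlr2 differed by 0.86, Pycard by 0.24, Nos2 by -0.30, Casp1 by 0.60, Tlr4 by 0.39, Il18 by 0.25, Il1b by 0.24, Nlrp3 by -0.03 and Tnf by -0.00, and none of these passed. APP-PS1_UA-WASHOUT was higher than WT_WASHOUT at 5 members, where 36.3% of features were called, 23.0% as higher, and slide and group again cannot be told apart. The differences were 2.45 for Nos2 (SE 0.11, adjusted p = 2.52e-12), 0.999 for Tnf (SE 0.11, adjusted p = 4.44e-07), 0.98 for Pycard (SE 0.09, adjusted p = 7.41e-08), 1.12 for Tlr2 (SE 0.27, adjusted p = 0.00263) and 0.57 for Cd14 (SE 0.15, adjusted p = 0.00508, with 0.86 for its second probe). Of these, 4 did not overlap between groups, against 16.7% of all features, and Tlr2 overlapped. With median scaling Cd14 differed by 0.28 (adjusted p = 0.134) and did not pass, and Il18 fell by 0.50 (adjusted p = 0.00496). With the series matrix score Cd14 did not pass either (adjusted p = 0.233). Over all features 8097 were higher and 4708 lower, against 5788 and 13898 with median scaling, 5564 and 8652 with quantile normalization and 5975 and 12278 with the series matrix score. Among markers, 9 of 12 of microglia (median 0.47), 7 of 11 of plaque-associated microglia (median 0.88) and 3 of 6 of lymphocytes (median 1.29) rose, and their part in the result was not tested. Of the 6 lymphocyte markers, 3 were well above background on all arrays. The differences of Nlrp3 (0.64), Il1b (0.54), Casp1 (0.24), Tlr4 (0.15) and Il18 (-0.20) did not pass. The dim second probes, tested singly, differed by 1.62 for Tlr4 (limma adjusted p = 4.59e-06), 1.93 for Il1b (0.00187) and 1.74 for Tnf (0.00404). Without the 4 arrays with the raised floor, 1 APP-PS1_UA-WASHOUT array was left, and the differences were 0.97 for Tlr2 and 0.39 for Cd14. A spread within that group could not then be measured. These comparisons share the WT_CTR or WT_WASHOUT arrays with the earlier ones.

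WT_WASHOUT differed from WT_CTR at no member (0.017% of features called). WT_CTR lay on slide 1 and WT_WASHOUT on slide 2, so time and slide cannot be told apart here. Il1b differed by 1.21 (SE 0.50, adjusted p = 0.550) and read -4.49, -4.74, -4.39, -4.94 and -4.67 in WT_WASHOUT, against -7.22, -5.24, -5.48 and -5.50 in WT_CTR, without overlap (0.93% of features on the higher side), though 2 of the 4 WT_CTR arrays were not well above background. The other 9 differed by between -0.25 for Nos2 and 0.61 for Casp1, with Nlrp3 at 0.32, Tlr4 at 0.15, Il18 at 0.14, Tlr2 at 0.09, Tnf at -0.03, Pycard at -0.06 and Cd14 at -0.07, its second probe at -0.12.

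The differences themselves were compared between the times. The transgene difference after washout exceeded that at the end of treatment for Nos2 by 2.37 (SE 0.18, adjusted p = 1.28e-07) and for Tnf by 1.07 (SE 0.18, adjusted p = 0.000492), where 14.3% of features were called, 11.6% as higher. Of the called features 4096 were higher and 933 lower, against 3028 and 4016 with median scaling and 2419 and 2453 with the series matrix score. This contrast crosses slides, so time, genotype and slide cannot be told apart in it, and with array row as a block the value for Tnf was 0.68 (adjusted p = 0.195). Pycard (0.35, adjusted p = 0.144), Tlr2 (-0.21) and Cd14 (-0.33) did not pass, and neither did Il1b (-1.38), Il18 (-0.36), Casp1 (-0.30), Nlrp3 (0.21) or Tlr4 (-0.05). The change of the urolithin A difference, after washout minus end of treatment, passed the test at no member, where 0.00851% of features were called by limma and 3571 had an unadjusted p under 0.05. The change was 0.39 for Pycard (SE 0.16, adjusted p = 0.418), 1.69 for Il1b (SE 0.79, adjusted p = 0.481) and 0.39 for Nos2 (SE 0.18, adjusted p = 0.477), each at an unadjusted p under 0.05. With slide as a fixed block these 3 were 0.22, 1.06 and 0.55. It was 0.47 for Tlr2, 0.46 for Nlrp3, 0.16 for Cd14, -0.06 for Casp1, -0.07 for Tnf, -0.10 for Il18 and -0.19 for Tlr4.

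By group mean, Pycard was highest in APP-PS1_UA-WASHOUT (-0.00) and APP-PS1_WASHOUT (-0.06), then APP-PS1_CTR (-0.35), APP-PS1_UA (-0.69), WT_CTR (-0.93) and WT_WASHOUT (-0.99). The first pair, the last pair, and APP-PS1_UA with WT_CTR overlapped. Cd14 ran in another order: APP-PS1_CTR (-0.59), APP-PS1_UA (-0.77), APP-PS1_WASHOUT (-0.99), APP-PS1_UA-WASHOUT (-1.004), WT_CTR (-1.51) and WT_WASHOUT (-1.58). All 4 transgenic means lay above both WT means, and neighbours within the transgenic groups and within the WT groups overlapped. APP-PS1_WASHOUT also overlapped both WT groups. Its lowest array read -1.36, against highest arrays of -1.28 in WT_CTR and -1.21 in WT_WASHOUT. Most groups lay on different slides, so group and slide cannot be fully told apart in either order.

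Over the 24 arrays the genes most like Pycard were Hk3 (Pearson r 0.957), Cd48 (0.950) and Ncf4 (0.949), and those most like Cd14 were Ptprc (0.954), Myo1f (0.933) and Ly86 (0.930), of 15109 genes compared. The genes most like Nos2 were Ephx3 (0.986), Gfy (0.986) and Glis1 (0.985), and those most like Tnf were Gabrr1 (0.981), Olfr1368 (0.980) and Marchf9 (0.975). With slide means removed, the highest for Nos2 was Aldh3a1 (0.692) and for Tnf Clpb (0.893), while Cd14 kept Ptprc (0.954) and Pycard had C4b (0.915), Cd52 (0.907) and Gpr84 (0.906). For Tlr2 the nearest were Ptpn18 (0.920), Tent5c (0.914) and Gusb (0.914). Casp1 was nearest to Il1rapl2 (0.929), Plxdc1 (0.926) and Plxnd1 (0.923), Il18 to Cibar1 (0.907), Commd8 (0.887) and Mbnl1 (0.882), and Tlr4 to Tmem140 (0.825), Srgn (0.810) and Mettl21a (0.782). All these arrays share slides and groups, so the correlations describe the arrays only.

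Other genes of the pathway were taken as 6 lists with 102 genes, of which 89 were measured. In APP-PS1_CTR against WT_CTR 0 of the 89 passed in either direction, and the median was 0.11, against -0.00 over all features. In APP-PS1_UA against APP-PS1_CTR and in APP-PS1_UA-WASHOUT against APP-PS1_WASHOUT 0 of 89 passed as well, with medians of -0.08 and -0.03. In APP-PS1_WASHOUT against WT_WASHOUT 25 rose and 6 fell (median 0.21, against 0.07 over all features), with slide and group not to be told apart, where 27.5% of all features were called and 19.8% were called higher. The adaptor, cytokine receptor and NF-kappaB lists below were near or under that share of higher calls. The inflammasome list (5 of 18) and the cytokine list (4 of 13) are short. No list was tested against that share. Other toll-like receptors and co-receptors held 8 of 14 that rose and 0 that fell, among them Tlr7, a sensor of single-stranded RNA (2.43, SE 0.20), and Unc93b1, which carries intracellular toll-like receptors to endosomes (0.67, SE 0.13). Inflammasome sensors and gasdermin machinery held 5 of 18 that rose and 1 that fell, with Casp4, the protease of the noncanonical inflammasome (0.99, SE 0.18), Card9 (2.41, SE 0.45) and Nlrp12 (2.39, SE 0.45). Cytokines and their antagonists held 4 of 13 that rose and 0 that fell, with Lif (3.17, SE 0.36) and Osm (1.48, SE 0.30), both of the interleukin-6 family. Cytokine receptors held 2 of 10 that rose and 0 that fell. Toll-like receptor adaptors and kinases held 4 of 19 that rose and 3 that fell. NF-kappaB subunits, inhibitors and targets held 2 of 15 that rose and 2 that fell, with Nfkb2, a subunit of the noncanonical arm (0.79, SE 0.16). The adjusted p of these 8 named genes ran from 2.80e-08 to 0.000862.

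**Figure D3:**
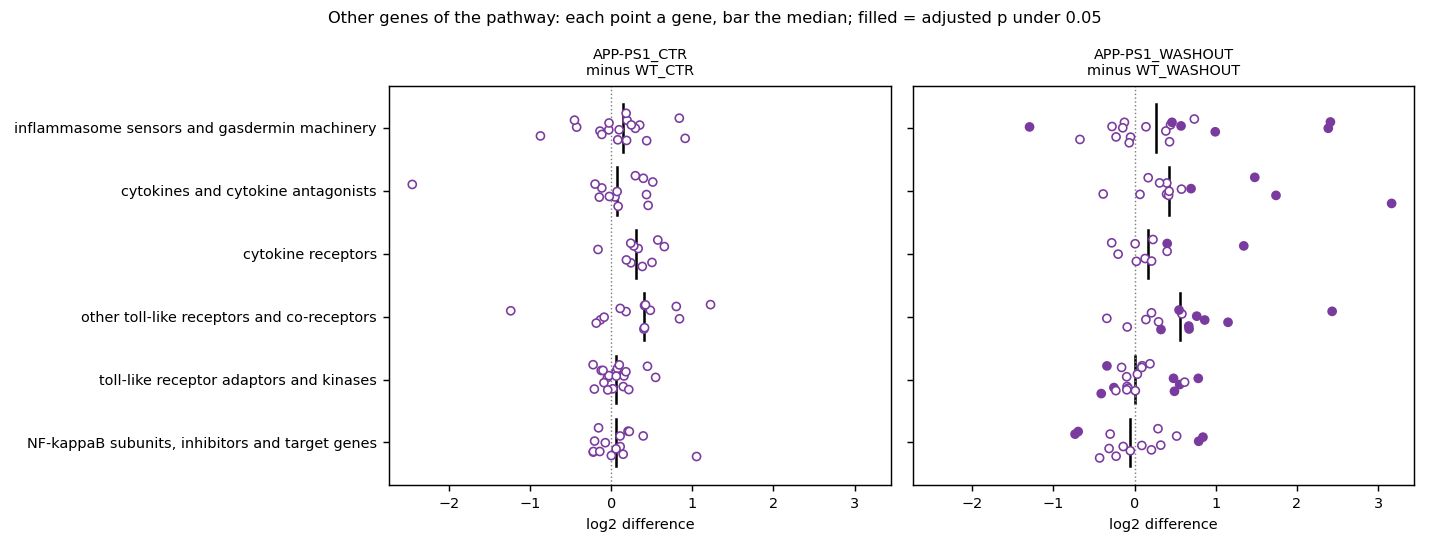
Log2 differences (x axis) of the other pathway genes by list (rows), in APP-PS1_CTR minus WT_CTR and in APP-PS1_WASHOUT minus WT_WASHOUT. Points are genes, filled where the adjusted p was under 0.05, and bars are list medians. No point is filled in the first comparison, and 31 are filled in the second.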

How the data were processed

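Hippocampal RNA was hybridised to Agilent 1-colour arrays (Cy3), per the labels. Per the file headers, the authors extracted each spot's intensity with Agilent software (Feature Extraction 12.0.3.1), which subtracts background and detrends within an array without scaling arrays to each other. A second deposited table gives a score per spot, which matched the log signal of its array standardized to mean 0 and SD 1 to within 0.005. Its log base is unknown. From the deposited intensity, log2 was taken, spots flagged as outliers were dropped, repeats of a probe were averaged, and the array's 75th percentile over probes was subtracted. The 75th percentile signal ran from 906 to 1585, 0 spots were saturated, and the number of arrays limits the precision.

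Probes well above background on at least 3 arrays, with at least 2 values per group, were kept (43973 of 56605). A gene was its brightest kept probe, and probes without a symbol were tested as they stood. One limma model (limma 3.58.1, R 4.3.3) of 6 group means was fitted to all 24 arrays. Benjamini-Hochberg adjustment ran over 35259 features in each comparison. The fit was also tried on simulated data for APP-PS1_CTR against WT_CTR. Those data held no slide or array row effects, so that trial cannot speak to such effects. Tables and plots used Python 3.11.15, pandas 2.3.3, numpy 2.4.6 and matplotlib 3.10.9. P-values rest on the spread between mice of a group, pooled over the 6 groups. Only APP-PS1_UA spans slides 1 and 2, so differences between slides are otherwise not measured by them.

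The members, gene lists and marker lists were chosen with earlier results of these data known. All members are named in each comparison, the 8 called pathway genes with the smallest adjusted p per comparison, and for members well above background on all arrays the 3 most correlated genes. Alternatives covered normalization, background correction (normexp, offset 50, on median signals, since mean signals were not used here), filter, probe rule, slide, array row, replicate number and single arrays. The following were chosen after seeing the data: the median-signal normexp and the omission of the arrays with a raised floor. RefSeq's table gave promoters for Il1b, Tlr2, Pycard, Casp1, Il18, Nlrp3 and Tnf.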

Additional observations from a re-analysis of the deposited data

Results flagged for a closer look

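Single arrays stood apart in 4 of the 40 sets of a member and a group of 4 or 5 arrays, where chance gives about 1 in 20. Pycard in WT_CTR replicate 1 was -0.82, with the nearest other array at -0.95. Casp1 in WT_CTR replicate 2 was -0.46, with the nearest at -1.76. Il1b in WT_CTR replicate 1 was -7.22, not well above background, with the nearest at -5.50. Tlr4 in APP-PS1_UA-WASHOUT replicate 3 was -3.13, with the nearest at -3.89, on an array with a raised floor.

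The transgene difference was larger after washout than at the end of treatment for Nos2, by 2.37 (limma adjusted p = 1.28e-07), and for Tnf, by 1.07 (limma adjusted p = 0.000492), in the test of the difference itself. After washout every APP-PS1_WASHOUT array was above every WT_WASHOUT array for both genes, and the groups lay on different slides, so slide and group cannot be told apart.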

How the results depend on the processing

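Nos2, Tnf and Pycard stayed called in the washout comparisons of transgenic with WT mice under all alternatives that left more than 1 array per group. The count of members called in APP-PS1_CTR against WT_CTR, 2, fell to 1 with normexp background or slide as a fixed block, and to 0 without the filter on dim probes, with the series matrix score, with array row as a block, with the replicate block, with the arrays of the shared slide alone, and with only the arrays of the groups compared. Leaving out single arrays gave 0 to 0. In APP-PS1_WASHOUT against WT_WASHOUT the count of 5 was 3 with the series matrix score and with only the compared arrays, and 3 to 5 leaving out single arrays. Without the arrays with a raised floor, APP-PS1_UA-WASHOUT kept 1 array, so no count is given for that alternative. For the change of the transgene difference between times, 2 members were called, and 1 with array row as a block. Pathway genes called were 2 with median scaling and 1 with normexp in APP-PS1_CTR against WT_CTR, 17 with normexp, 20 with array row as a block and 19 to 31 leaving out single arrays in APP-PS1_WASHOUT against WT_WASHOUT, and 1 without the dim filter in APP-PS1_UA-WASHOUT against APP-PS1_WASHOUT. Slide could not be fitted as a fixed block between the washout transgenic and WT groups. Deviations of same-numbered arrays correlated from -0.24 to 0.32. Differently numbered arrays were not compared, so this range cannot decide whether numbers pair mice. The replicate block changed the count of members or pathway genes by over 1.5 times in no other comparison, and it moved the count over all features to 34 from 60 in APP-PS1_CTR against WT_CTR and to 12 from 23 in APP-PS1_UA-WASHOUT against APP-PS1_WASHOUT. The cause of these changes was not tested. Dim signal limits Nlrp3 and Il1b.

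Of the called member differences, 136 kept direction and call under an alternative and 25 lost the call, and leaving out single arrays gave 115 and 19. None of them changed direction. Uncalled differences changed sign 90 times, and none passed the test before or after, except Tlr4 in APP-PS1_UA-WASHOUT against WT_WASHOUT with the series matrix score (adjusted p = 0.0281). With normexp background, the values were Nlrp3 -0.0087, Casp1 -0.041, Nos2 0.027 in APP-PS1_CTR against WT_CTR, and Nlrp3 -0.043, Tlr4 -0.026 in APP-PS1_WASHOUT against WT_WASHOUT, and Tlr4 0.089, Cd14 0.023 in APP-PS1_UA-WASHOUT against APP-PS1_WASHOUT, and Tnf 0.0038 in APP-PS1_UA against WT_CTR, and Tnf 0.0054 in WT_WASHOUT against WT_CTR, and Nlrp3 -0.035 in the change of the transgene difference between times, and Tnf 0.029, Tlr4 0.045 in the change of the urolithin A difference between times. With the replicate block, the values were Casp1 -0.098 in APP-PS1_CTR against WT_CTR, and Tlr4 0.068 in APP-PS1_UA-WASHOUT against APP-PS1_WASHOUT, and Tnf 8.6e-05, Tlr2 -0.032 in WT_WASHOUT against WT_CTR, and Casp1 0.018 in the change of the urolithin A difference between times. With array row as a fixed block, the values were Tnf 0.11, Nos2 0.017, Tlr4 -0.029 in APP-PS1_CTR against WT_CTR, and Tnf -0.062, Tlr2 0.022 in APP-PS1_UA against APP-PS1_CTR, and Pycard -0.0029, Tlr2 -0.30 in APP-PS1_UA-WASHOUT against APP-PS1_WASHOUT, and Nlrp3 0.012, Tnf 0.052 in APP-PS1_UA against WT_CTR, and Tnf 0.15, Tlr2 -0.32, Tlr4 -0.046 in WT_WASHOUT against WT_CTR, and Nlrp3 -0.11, Tlr2 0.71, Tlr4 0.38, Cd14 0.092 in the change of the transgene difference between times, and Casp1 0.67, Tnf 0.27, Tlr2 -0.32, Cd14 -0.20 in the change of the urolithin A difference between times. With slide as a fixed block, the values were Il1b 0.027, Tnf -0.089, Tlr2 0.26 in APP-PS1_UA against APP-PS1_CTR, and Pycard 0.17, Nlrp3 -0.048, Casp1 -0.12, Cd14 0.074 in WT_WASHOUT against WT_CTR, and Casp1 0.49, Il18 0.0086, Tnf 0.12, Tlr2 -0.15 in the change of the urolithin A difference between times. With arrays of the shared slide alone, the values were Il1b 0.027, Tnf -0.089, Tlr2 0.26 in APP-PS1_UA against APP-PS1_CTR. With quantile normalization, the values were Nlrp3 -0.42, Tlr4 -0.19 in APP-PS1_WASHOUT against WT_WASHOUT, and Nlrp3 0.050, Tnf 0.054 in APP-PS1_UA against WT_CTR, and Nlrp3 -0.025, Il1b -0.041, Tlr4 -0.31 in APP-PS1_UA-WASHOUT against WT_WASHOUT, and Tnf 0.049 in WT_WASHOUT against WT_CTR, and Nlrp3 -0.52 in the change of the transgene difference between times. With the series matrix score, the values were Nlrp3 -0.049, Tlr4 -0.060 in APP-PS1_WASHOUT against WT_WASHOUT, and Tnf -0.036, Tlr2 -0.0067 in APP-PS1_UA-WASHOUT against APP-PS1_WASHOUT, and Nlrp3 0.0075, Tnf 0.0050 in APP-PS1_UA against WT_CTR, and Nlrp3 -0.034, Casp1 -0.018, Il1b -0.036, Tlr4 -0.12 in APP-PS1_UA-WASHOUT against WT_WASHOUT, and Tnf 0.0025 in WT_WASHOUT against WT_CTR, and Nlrp3 -0.074 in the change of the transgene difference between times. With median scaling, the values were Tlr4 -0.068 in APP-PS1_WASHOUT against WT_WASHOUT, and Pycard -0.017, Il18 -0.050, Tnf -0.034 in APP-PS1_UA-WASHOUT against APP-PS1_WASHOUT, and Nlrp3 0.024, Tnf 0.054 in APP-PS1_UA against WT_CTR, and Casp1 -0.055, Tlr4 -0.15 in APP-PS1_UA-WASHOUT against WT_WASHOUT, and Pycard 0.016, Tnf 0.049, Cd14 0.0079 in WT_WASHOUT against WT_CTR, and Nlrp3 -0.055 in the change of the transgene difference between times. With the arrays with a raised floor left out, the values were Il18 -0.051, Tlr2 -0.042 in APP-PS1_UA-WASHOUT against APP-PS1_WASHOUT, and Il1b -0.50, Tlr4 -0.13 in APP-PS1_UA-WASHOUT against WT_WASHOUT. With the mean of a gene's probes, the values were Cd14 0.064 in APP-PS1_UA-WASHOUT against APP-PS1_WASHOUT. With slide as a random block, the values were Tnf 0.015 in APP-PS1_UA against WT_CTR. Leaving out single arrays, the ranges were Nlrp3 -0.46 to 0.34, Casp1 -0.13 to 0.34, Il18 -0.020 to 0.23, Nos2 -0.16 to 0.058 in APP-PS1_CTR against WT_CTR, and Nlrp3 -0.38 to 0.090 in APP-PS1_UA against APP-PS1_CTR, and Pycard -0.047 to 0.19, Nlrp3 -0.15 to 0.82, Il18 -0.039 to 0.12, Tlr2 -0.016 to 0.20, Tlr4 -0.18 to 0.058, Cd14 -0.20 to 0.11 in APP-PS1_UA-WASHOUT against APP-PS1_WASHOUT, and Nlrp3 -0.55 to 0.26, Il1b -0.22 to 0.68, Tnf -0.10 to 0.098 in APP-PS1_UA against WT_CTR, and Tlr4 -0.024 to 0.24 in APP-PS1_UA-WASHOUT against WT_WASHOUT, and Nlrp3 -0.19 to 0.62, Il18 -0.011 to 0.24, Tnf -0.094 to 0.074, Tlr2 -0.17 to 0.24, Tlr4 -0.0063 to 0.22, Cd14 -0.16 to 0.0079 in WT_WASHOUT against WT_CTR, and Nlrp3 -0.080 to 0.73, Tlr2 -0.41 to 0.049, Tlr4 -0.13 to 0.099 in the change of the transgene difference between times, and Nlrp3 -0.070 to 0.91, Casp1 -0.28 to 0.22, Il18 -0.16 to 0.0073, Tnf -0.13 to 0.032, Cd14 -0.028 to 0.28 in the change of the urolithin A difference between times.

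Over all alternatives and left-out arrays, the features called, with their lowest and highest counts, were 60 (8 to 72) in APP-PS1_CTR against WT_CTR, 0 (0 to 9) in APP-PS1_UA against APP-PS1_CTR, 9702 (5893 to 12850) in APP-PS1_WASHOUT against WT_WASHOUT, 23 (0 to 2862) in APP-PS1_UA-WASHOUT against APP-PS1_WASHOUT, 22 (5 to 31) in APP-PS1_UA against WT_CTR, 12805 (4995 to 21734) in APP-PS1_UA-WASHOUT against WT_WASHOUT, 6 (0 to 87) in WT_WASHOUT against WT_CTR, 5029 (784 to 7044) in the change of the transgene difference between times, 3 (0 to 36) in the change of the urolithin A difference between times.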
